A study of Mus musculus with 6 samples.

Results

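C-type lectin receptors are surface proteins with a carbohydrate-recognition fold that macrophages use to sense glycans and glycolipids of microbes and of damaged cells. Members that activate the cell couple to the kinase Syk, either through a tyrosine motif in their own tail or through the adaptors encoded by Fcer1g and Tyrobp, and pass the signal on through Card9, Bcl10 and Malt1. Inhibitory members carry a motif that recruits phosphatases, and the mannose receptor mainly takes up glycoproteins. The 10 genes described here, out of 21878 in the count table, are Clec4e, Clec4d, Clec4n, Clec5a, Clec7a, Clec12a, Clec4a1, Clec4a2, Clec4a3 and Mrc1, found by their symbols. All 10 had counts in every library and passed the filter on low counts.

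The cells were bone marrow-derived macrophages of wild-type C57BL/6 mice, grown in 50 ng/mL of the growth factor M-CSF. In both groups they were kept for 48 h with LLC, a line from a mouse lung carcinoma, on the other side of a transwell membrane with 0.4 µm pores, so no library is from macrophages without tumour cells. After a change of medium, the cells of 3 libraries were given β-elemene (100 µg/mL), a sesquiterpene found in plants, and those of the other 3 the same volume of buffered saline (PBS), each for 24 h. The labels give neither age nor sex of the mice, nor any pooling. They do not say whether replicates came from different animals or dishes, so each p-value rests on library-to-library spread that may be purely technical.

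Levels are CPM (counts scaled to the same library total), with library totals first scaled by the trimmed mean of M-values (TMM). Changes are log2 fold changes, β-elemene over PBS, each with its SE and edgeR adjusted p (n = 3 per group). Totals lay between 18916844 and 20729887 counts per library. The 11 tested macrophage markers were all called, 8 higher and 3 lower, where 76.7% of all genes tested were called (36.6% higher, 40.2% lower). Lyz2, lysozyme, the most abundant, stood at 9203 CPM with β-elemene against 6776 with PBS. The whole list summed to 17410.0 to 17950.0 CPM in the β-elemene libraries and 13900.0 to 14900.0 CPM in the others. Scaled by library size alone, that sum had the opposite direction (13910.0 to 14570.0 against 17480.0 to 18490.0 CPM), and Lyz2 turned to -0.20 on the log2 scale. On that scaling 5 of the 11 were called higher and 5 lower, where 18.9% of all genes were higher and 69.8% lower. Of the carcinoma and epithelial markers, Krt19, Cldn4, Nkx2-1 and Sftpc had 0 counts in every library, and Krt8, Krt18, Epcam and Krt7 had at most 2 counts over a group. Cdh1, E-cadherin, which made up nearly all of that list with PBS, had 2 summed counts in the β-elemene libraries against 10386, and Muc1 had 20 against 105. Both were called lower. Which cells carried these transcripts was not tested.

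With β-elemene the receptor transcripts changed in make-up, with 2 genes taking the place of 2 others as the most abundant. Clec4e rose 36.8-fold and Clec4d 7.24-fold, Clec12a, Clec4a1 and Clec5a rose between 2.17-fold and 2.55-fold, and Mrc1 and Clec7a fell 24.9-fold and 7.71-fold. Clec4a2, Clec4a3 and Clec4n did not pass the test. In all, 7 of 10 members were called (70.0%), where 76.7% of the 11459 genes tested were called, and the groups did not overlap for the same number of members, where 79.9% of all genes tested did not overlap. Higher with β-elemene were 5 of 10, against 36.6% of all genes, and lower were 2 of 10, against 40.2%. The number of changed members was thus near the background, and what follows concerns their sizes and their balance. The median log2 fold change was 0.63 over the members and -0.06 over all genes.

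**Figure D1:**
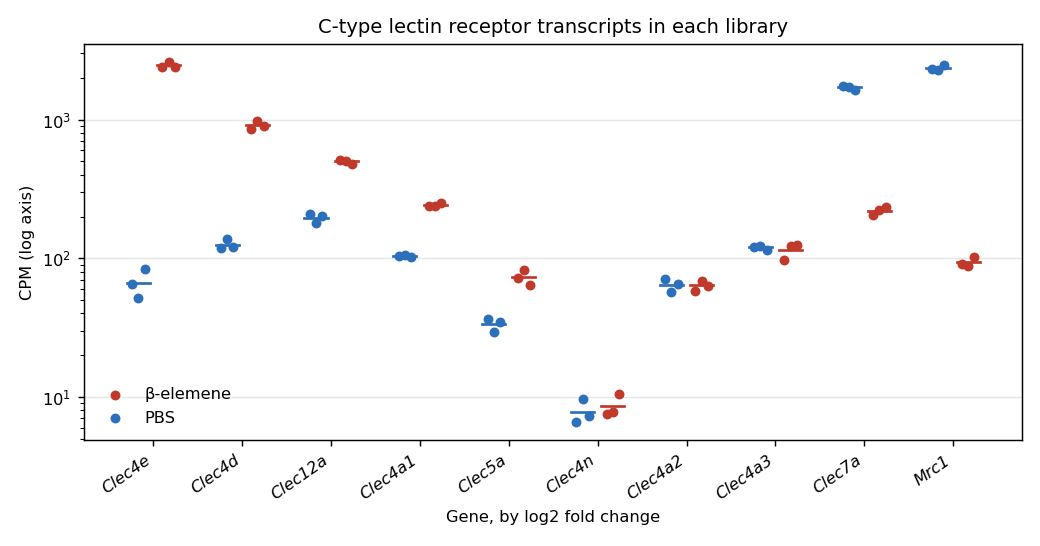
CPM on a log axis for each of the 10 genes, ordered by log2 fold change, with 1 point per library (red, β-elemene; blue, PBS) and a line at the group mean. Clec4e lies between 2381 and 2599 CPM in the β-elemene libraries and between 51.4 and 84.0 in the PBS libraries, while Mrc1 lies between 87.6 and 102.8 and between 2267 and 2461, and the points of Clec4a2, Clec4a3 and Clec4n overlap.

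Clec4e encodes Mincle, an activating receptor for glycolipids such as mycobacterial cord factor that signals through the Fc receptor gamma chain. It stood at 2381, 2599 and 2411 CPM in the β-elemene libraries 1, 2 and 3 and at 65.3, 51.4 and 84.0 CPM in the PBS libraries 1, 2 and 3. Every β-elemene library was far above every PBS library, and the PBS libraries varied among themselves more than for any other member, with a coefficient of variation of 24.5% (4.79% with β-elemene). The log2 fold change was 5.20 (SE 0.19, edgeR adjusted p = 5.69e-08), a size exceeded by 2.03% of the genes tested.

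Clec4d encodes MCL, a partner of Mincle that also signals through the gamma chain. It stood at 850.1, 969 and 904 CPM with β-elemene and at 118, 137 and 121 CPM with PBS, with no overlap. The log2 fold change was 2.86 (SE 0.08, edgeR adjusted p = 1.13e-12). Because both genes were counted in the same library, their ratio needs no scaling between libraries. Clec4e counts were below those of Clec4d in each PBS library and above them in each β-elemene library, and the mean log2 ratio of Clec4d to Clec4e was 0.93 ± 0.45 with PBS and -1.44 ± 0.04 with β-elemene (SD, n = 3, exact permutation p = 0.1, two-sided, the smallest that 3 against 3 allows).

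Clec7a encodes dectin-1, the receptor for fungal beta-glucans, which signals to Syk through a motif in its own tail. It stood at 206, 222 and 234 CPM with β-elemene and at 1757, 1723 and 1629 CPM with PBS. The lowest PBS library was thus well above the highest β-elemene library. The log2 fold change was -2.95 (SE 0.07, edgeR adjusted p = 3.86e-13). Mrc1, which encodes the mannose receptor CD206, stood at 91.6, 87.6 and 102.8 CPM with β-elemene and at 2301, 2267 and 2461 CPM with PBS. It fell by 4.64 on the log2 scale (SE 0.08, edgeR adjusted p = 3.74e-14), further than Clec7a: within libraries the mean log2 ratio of Mrc1 to Clec7a was 0.46 ± 0.12 with PBS and -1.23 ± 0.10 with β-elemene (SD, n = 3, exact permutation p = 0.1). In these bulk samples, fewer cells that carry a transcript and less of it per cell cannot be told apart.

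The 250 bases before the start sites of these 4 genes are shown because the genes moved furthest and in opposite directions. The sequences are from RefSeq's annotation of GRCm38.p6, read 5′ to 3′ on the gene's own strand, at chr6:123289872-123290121 (minus strand) for Clec4e, chr6:123261857-123262106 (plus) for Clec4d, chr6:129472786-129473035 (minus) for Clec7a and chr2:14229164-14229413 (plus) for Mrc1. Clec7a has a second annotated start 6 bases away, whose window overlaps the printed one and holds the same GAGGAA match. Capitals mark matches, on either strand, to the letters GAGGAA (an ETS factor core such as that of PU.1), TTNNGNAA (C/EBP) and to a loose NF-kB pattern (3 G, any 5 bases, then 2 C).
Clec4e: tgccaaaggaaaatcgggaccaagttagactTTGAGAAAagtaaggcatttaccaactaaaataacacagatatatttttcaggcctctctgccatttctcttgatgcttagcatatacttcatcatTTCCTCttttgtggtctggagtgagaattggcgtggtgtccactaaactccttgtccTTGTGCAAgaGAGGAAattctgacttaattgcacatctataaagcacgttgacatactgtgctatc
Clec4d: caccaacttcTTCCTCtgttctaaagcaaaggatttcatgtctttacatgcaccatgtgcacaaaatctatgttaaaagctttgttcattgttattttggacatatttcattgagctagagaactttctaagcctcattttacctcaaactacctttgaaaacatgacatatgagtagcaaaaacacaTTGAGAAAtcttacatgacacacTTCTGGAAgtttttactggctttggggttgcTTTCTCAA
Clec7a: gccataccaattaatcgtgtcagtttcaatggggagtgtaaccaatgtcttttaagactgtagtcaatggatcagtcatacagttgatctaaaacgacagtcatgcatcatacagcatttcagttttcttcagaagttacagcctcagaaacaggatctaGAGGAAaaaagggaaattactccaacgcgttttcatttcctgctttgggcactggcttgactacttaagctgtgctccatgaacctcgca
Mrc1: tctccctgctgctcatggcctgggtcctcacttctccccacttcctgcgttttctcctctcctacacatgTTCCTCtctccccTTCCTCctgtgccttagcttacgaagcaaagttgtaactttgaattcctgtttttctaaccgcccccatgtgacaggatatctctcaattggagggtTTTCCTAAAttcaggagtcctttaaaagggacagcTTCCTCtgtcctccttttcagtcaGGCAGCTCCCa
The Clec4e window held 2 GAGGAA and 2 TTNNGNAA matches and that of Clec4d 1 and 3. The Clec7a window held 1 GAGGAA match and none of the other patterns, and that of Mrc1 held 3 GAGGAA matches, 2 TTNNGNAA matches that overlap each other and 1 NF-kB pattern match.

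Windows were found for 9 members, all but Clec4n, and 11 in all, since Clec4a3 and Clec7a have 2 annotated starts. A GAGGAA match lay in 9 of the 11, the exceptions being that of Clec4a2 and 1 of those of Clec4a3, where 23.3% of 32851 promoter windows of this length held one. By gene this was 8 of 9, as the 2 Clec7a windows overlap and hold the same match. TTNNGNAA matched in 6 of 11 (36.9% of all windows) and the NF-kB pattern in 2 of 11, Mrc1 and Clec4a1 (45.8% of all windows). The interferon response element (ISRE) matched in 0 of 11 (2.98%), the AP-1 pattern TGANTCA in 1, Clec12a (6.75%), and the STAT pattern TTCNNNGAA in 1, Clec4a2 (7.02%). Members that rose and members that fell both held GAGGAA matches. A match is a description of these letters and no measure of binding.

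Of the remaining activating receptors, Clec5a rose and Clec4n did not pass. Clec5a encodes MDL-1, which signals through the adaptor DAP12. It stood at 72.0, 82.2 and 64.3 CPM with β-elemene and at 36.3, 29.6 and 34.97 CPM with PBS, without overlap (log2 fold change 1.11, SE 0.10, edgeR adjusted p = 8.17e-07). Clec4n encodes dectin-2, a receptor for fungal mannans, and was the least abundant member, with 120 to 249 counts per library. It stood at 7.57, 7.81 and 10.5 CPM with β-elemene and at 6.59, 9.67 and 7.25 CPM with PBS, and these values are intermixed. Its log2 fold change with TMM was 0.14 (95% interval -0.23 to 0.51, edgeR adjusted p = 0.470). A rise of more than 0.51 or a fall of more than 0.23 lies outside that interval, as does the value of -0.50 with library size alone.

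Among receptors with an inhibitory motif, Clec12a rose and Clec4a2 did not pass. Clec12a encodes MICL, an inhibitory receptor that recognises uric acid crystals. It stood at 515, 502 and 482 CPM with β-elemene and at 207, 179 and 202 CPM with PBS, without overlap (log2 fold change 1.35, SE 0.07, edgeR adjusted p = 4.27e-10). Clec4a2 encodes the dendritic cell immunoreceptor DCIR. It stood at 58.5, 69.1 and 63.5 CPM with β-elemene and at 70.5, 57.2 and 65.1 CPM with PBS, with the groups interleaved (log2 fold change -0.01, 95% interval -0.20 to 0.17, edgeR adjusted p = 0.894).

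Its relatives Clec4a1 and Clec4a3 went different ways. Clec4a1 stood at 236, 236 and 249.7 CPM with β-elemene and at 104, 106 and 103 CPM with PBS, a rise with little spread in either group (log2 fold change 1.21, SE 0.05, edgeR adjusted p = 1.27e-10). Clec4a3 stood at 97.4, 122 and 125 CPM with β-elemene and at 121, 123 and 115 CPM with PBS. Its β-elemene library 1 was the lowest of the 6, while the other 2 lay above or among the PBS libraries (log2 fold change -0.06, 95% interval -0.25 to 0.13, edgeR adjusted p = 0.533). The mean log2 ratio of Clec4a1 to Clec4a3 was 1.08 ± 0.18 with β-elemene and -0.20 ± 0.03 with PBS (SD, n = 3, exact permutation p = 0.1). Whether reads of near-identical genes were split or dropped in counting was not tested. Identical 100-base stretches of the annotated transcripts were shared with another gene for Clec4a2 alone, at 2.14%, all with Clec4a4.

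Whether Clec4a2, Clec4a3 and Clec4n were called rested on how libraries were scaled, and for Clec4a2 and Clec4n so did the sign. TMM factors spanned 0.794 to 0.812 in the β-elemene libraries and 1.24 to 1.26 in the PBS libraries, and library size alone in place of TMM moved the median of all genes by -0.64, the upper quartile by -0.32. Clec4e, Clec4d, Clec12a, Clec4a1 and Clec5a were called higher and Mrc1 and Clec7a lower under all 4 scalings. Median-of-ratios scaling gave the same member calls, with 76.5% of all genes called (38.3% in each direction). Clec4a2 and Clec4a3 were called lower with the upper quartile (log2 fold changes -0.33 and -0.37, edgeR adjusted p = 0.00297 and 0.0017) and with library size alone (-0.65 and -0.70, edgeR adjusted p = 1.36e-05 and 6.58e-06). Clec4n, at 0.14 with TMM, was called lower with library size alone (-0.50, edgeR adjusted p = 0.0124). Members called lower thus numbered 4 with the upper quartile, where 82.7% of all genes were called (25.7% higher, 57.0% lower), and 5 with library size alone, where 88.7% were (18.9% higher, 69.8% lower). With library size alone the rise of Clec5a was 0.48 and those of Clec12a and Clec4a1 were 0.71 and 0.57, each less than the 1.11 to 1.35 given by TMM.

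**Figure D2:**
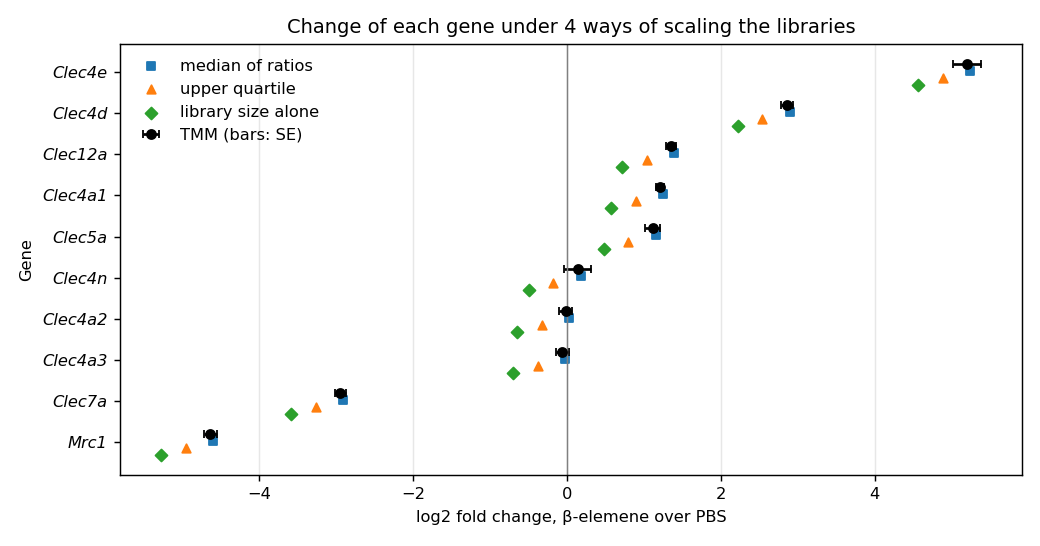
Log2 fold change of β-elemene over PBS (x axis) for each gene (y axis) under 4 scalings of the libraries, with SE bars for TMM only. All genes shift to the left together with the upper quartile and with library size alone, and Clec4n crosses 0 with both while Clec4e stays at 4.57 or above and Mrc1 at -4.60 or below.

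Ratios between members within a library do not depend on the scaling. Over the 45 pairs of members, 40 had groups that reached the smallest exact permutation p of 0.1, which the adjustment over the pairs raised to 0.1125, so no pair could pass. The share for pairs of other genes was not computed, and 79.9% of all single genes tested had groups that did not overlap. The count is therefore not read as a trait of these receptors. The pairs that did not reach 0.1 were Clec4a1 with Clec5a and with Clec12a, and Clec4a2, Clec4a3 and Clec4n with each other. A p above the smallest does not show that 2 genes changed alike. The mean log2 ratio of Clec4a1 to Clec5a was 1.73 ± 0.22 with β-elemene and 1.64 ± 0.17 with PBS (SD, n = 3, exact permutation p = 0.7).

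Levels of different genes were compared per kilobase of annotated exon (CPM per kb). With PBS, Clec7a stood highest at 745 ± 29.0 CPM per kb, followed by Mrc1 at 436 ± 19.2, and no other member exceeded 104 in any library. With β-elemene, Clec4e stood highest at 978 ± 46.9 CPM per kb, followed by Clec4d at 686 ± 45.1 and Clec12a at 199.6 ± 6.75 (SD, n = 3 each). Among 11103 tested genes with an exon length, Clec7a went from rank 32 with PBS to 849 with β-elemene and Mrc1 from 78 to 3285, while Clec4e went from 1966 to 61 and Clec4d from 524 to 99. Some neighbours in the order of members had overlapping libraries. With PBS these were Clec4d and Clec4a3, Clec4e and Clec4a2, and Clec5a and Clec4n, and with β-elemene they were Clec7a and Clec4a3, and Clec5a and Mrc1.

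As a share of the summed per-kilobase level of the 10 members, which is also free of scaling, Mrc1 and Clec7a together made up 74.6% to 75.1% in the PBS libraries and 4.78% to 5.37% in the β-elemene libraries. Clec4d and Clec4e made up 7.21% to 7.96% with PBS and 72.6% to 74.3% with β-elemene. The other 6 members together held 17.2% to 17.7% with PBS and 21% to 22% with β-elemene, so most of the shift in shares lay between these pairs. The pairs were formed from the largest rises and falls in these same data, and the 3 shares make up the whole. Their separation was thus fixed in advance and is a description, with no test. The summed level of all 10 members per kilobase was 2174 to 2376 CPM per kb with β-elemene and 1568 to 1594 with PBS (exact permutation p = 0.1), and with library size alone it was 1737 to 1930.0 and 1946 to 2005, the opposite order. Without division by length, the TMM-scaled sum ranged from 4516 to 4897 CPM with β-elemene and from 4682 to 4822 CPM with PBS, ranges that overlap. Without scaling, the members took 0.361% to 0.398% of each β-elemene library and 0.581% to 0.602% of each PBS library.

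**Figure D3:**
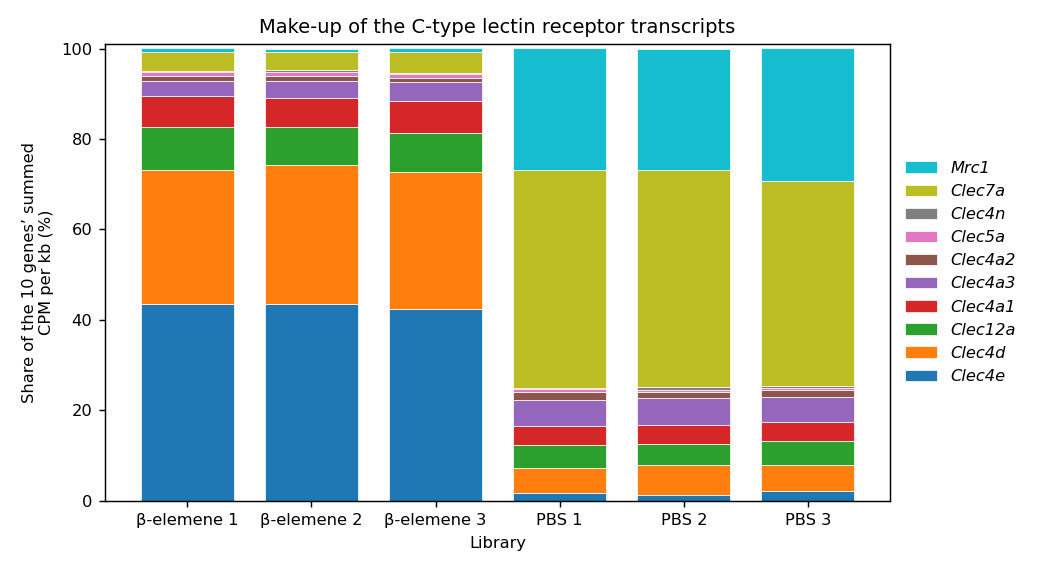
Share of each gene in the summed CPM per kb of the 10 genes (y axis, percent) in each library (x axis). Clec4e and Clec4d fill 72.6% to 74.3% of the β-elemene bars, and Clec7a and Mrc1 fill 74.6% to 75.1% of the PBS bars.

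All members but Mrc1 lie on chromosome 6. Clec4a1, Clec4a3, Clec4a2, Clec4n, Clec4d and Clec4e lie in that order within 368024 bases (chr6:122921848-123289871, GRCm38.p6). The 2 that rose most, Clec4d and Clec4e, sit at 1 end with 6520 bases between them, on opposite strands. Clec4n, 15082 bases before Clec4d, did not pass, nor did Clec4a2 and Clec4a3 further along, and Clec4a1 at the other end rose. Of 6 tested other genes within the group or up to 200 kb from it, 0 were called higher and 3 lower under edgeR with TMM, with 0 higher at an unadjusted p under 0.05 and 0 with DESeq2 or limma-voom, where 36.6% and 40.2% of all genes were called. The 3 were Slc2a3, a glucose transporter, at -1.84 (SE 0.25), C3ar1, the receptor for complement C3a, at -0.52 (SE 0.07), and Necap1 at -0.31 (SE 0.06).

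Clec12a and Clec7a lie 96287 bases apart in a second group on chromosome 6 (chr6:129349783-129472785) and moved in opposite directions. Around them, 5 of 8 tested genes rose and 3 fell, where 36.6% and 40.2% of all genes did. Cd69, an early activation marker, was at 1.22 ± 0.10 CPM with PBS and 623 ± 122 CPM with β-elemene (log2 fold change 8.99, SE 0.22) and Klrk1, which encodes NKG2D, at 1.21 ± 0.14 and 161 ± 19.3 CPM (7.06, SE 0.13), and Clec2d rose by 1.38 (SE 0.06). Olr1, which encodes the oxidised LDL receptor LOX-1, fell from 222 ± 12.99 CPM with PBS to 39.0 ± 5.86 (log2 fold change -2.51, SE 0.10), and Gabarapl1, an autophagy gene, fell by 0.94 (SE 0.12) on the same scale. Neighbours by position thus moved in both directions.

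**Figure D4:**
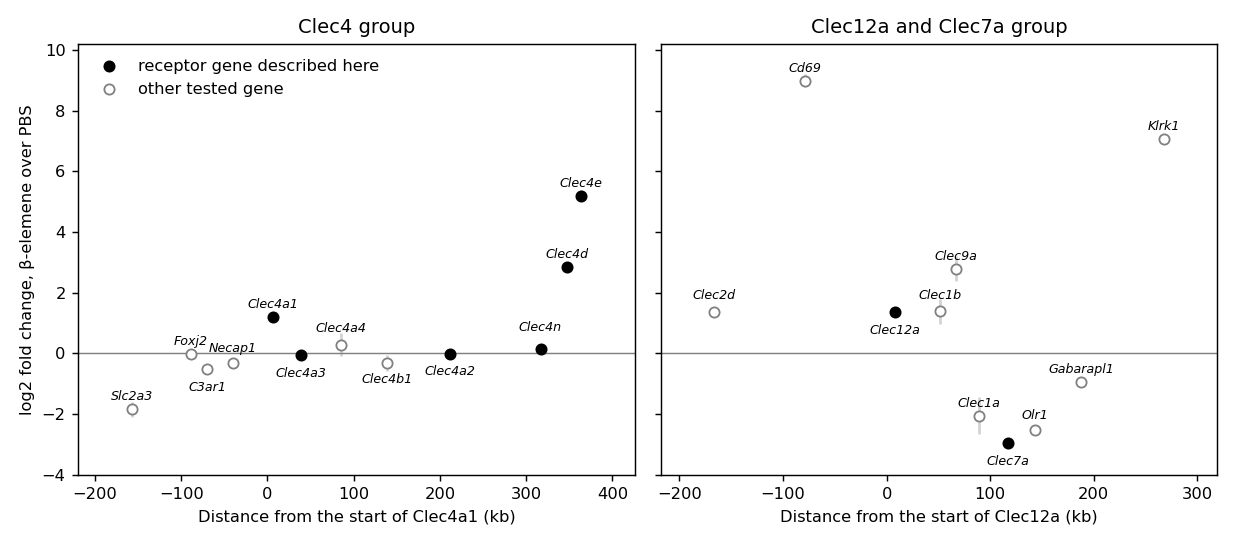
Log2 fold change with SE (y axis) against distance in kb from the start of Clec4a1 (left) or Clec12a (right), with filled points for the receptor genes described here and open points for other tested genes. Clec4d and Clec4e stand at 2.86 and 5.20 at the right end of the left panel, where Clec4n beside them is at 0.14, and Clec12a and Clec7a stand on opposite sides of 0 in the right panel.

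Other C-type lectin-domain receptors were taken as a list of 45 genes, 44 of them in the table and 24 tested. Of these, 10 rose, 7 fell and 7 did not pass (70.8% called), with a median log2 fold change of 0.24. Of all genes, 76.7% were called, 36.6% higher and 40.2% lower. With library size alone the split was 8 higher and 12 lower, where 18.9% of all genes were higher and 69.8% lower. Ly75, which encodes the uptake receptor DEC-205 of the same family as Mrc1, rose from 3.47 ± 0.53 CPM with PBS to 28.1 ± 2.85 (log2 fold change 3.01, SE 0.13), and Pla2r1, of that family too, rose by 3.81 (SE 0.19). Mrc2, the third relative of Mrc1, had 5 and 13 summed counts and was not tested. Cd302 rose by 1.38 (SE 0.08). Of the DC-SIGN group, Cd209a fell from 4.17 ± 0.77 CPM with PBS to 0.146 ± 0.0338 (log2 fold change -4.78, SE 0.36). Cd209e, at 0 summed counts with β-elemene against 66, was at least 13.7-fold lower (against 3 counts over the group). Cd209b (0 against 1), Cd209c (1 against 23), Cd209d (0 against 5), Cd209f (7 against 7) and Cd209g (27 against 4) were not tested. The β-elemene libraries 1, 2 and 3 held 0, 21 and 6 counts of Cd209g. Thbd, thrombomodulin, fell by 2.87 (SE 0.27).

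Dendritic cell genes overlap these receptors, so their list was examined. Its summed level was 765 to 846 CPM per library with β-elemene and 144 to 189 with PBS, and of 7 tested genes 3 rose and 3 fell (76.7% of all genes were called, as for the lists that follow). Bst2, which interferon also induces in macrophages, made up 796 and 123 CPM of these sums. Batf3, a transcription factor of dendritic cells, fell from 32.6 ± 2.67 CPM with PBS to 1.40 ± 0.19 (log2 fold change -4.54, SE 0.13), and Ccr7, a chemokine receptor, rose from 0.610 ± 0.42 to 5.66 ± 3.57 CPM (3.21, SE 0.74). Of the other defining genes, Flt3 stood at 0.125 and 0.259 CPM, Zbtb46 at 0.691 and 3.26, and Xcr1 at 0.210 and 0 (10 and 0 summed counts). Clec9a, in both lists, stood at 1.56 ± 0.52 CPM with β-elemene against 0.220 ± 0.0442 with PBS. Among neutrophil markers 4 of 9 rose and 2 fell. Their summed levels were 549.8 to 660.0 CPM with β-elemene and 551.5 to 600.4 with PBS, nearly all from Csf3r, and Ly6g had 4 and 0 counts. Monocyte markers summed to 671 to 779 CPM with β-elemene and 724 to 789 with PBS, with 5 of 8 higher and 2 lower. Within that sum Fn1, fibronectin, the most abundant over all 6 libraries, was at 698 CPM with PBS and 167 with β-elemene, and Vcan, versican, at 1.97 and 532 CPM. Fibroblast markers summed to 31.3 to 38.5 CPM with β-elemene and 36.5 to 42.9 with PBS, with 1 of 8 higher and 4 lower. Postn was the most abundant over all 6 libraries (Pdgfrb, at 18.2 CPM, led with β-elemene). Lymphocyte markers summed to 6.25 to 8.4 CPM with β-elemene and 5.46 to 7.23 with PBS, with 0 of 1 called, the most abundant gene Cd4. With library size alone, the neutrophil, monocyte, fibroblast and lymphocyte sums were all lower with β-elemene, with no overlap. The part of other cell types in the receptor changes was not tested.

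Signalling genes downstream of the receptors were described as a list of 32, all tested. Of these, 17 rose, 9 fell and 6 did not pass (81.2% called, near the 76.7% of all genes), with a median log2 fold change of 0.25 (-0.06 over all genes). By direction, 36.6% of all genes were called higher and 40.2% lower. The adaptor Fcer1g, used by Mincle, MCL and dectin-2, rose from 250.7 ± 7.996 CPM with PBS to 662 ± 40.4 (log2 fold change 1.40, SE 0.06), and Syk rose from 354 ± 19.5 to 1493 ± 111 CPM (2.08, SE 0.07). Card9, the adaptor downstream of Syk, fell from 49.1 ± 2.41 to 16.9 ± 0.62 CPM (-1.54, SE 0.07), whereas Malt1, which acts in the same complex, rose by 3.29 (SE 0.09). Tyrobp, which encodes DAP12, stood at 871 ± 24.5 against 732 ± 13 CPM, called higher with TMM at 0.25 (SE 0.06, edgeR adjusted p = 0.00145) and lower with library size alone at -0.39.

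Kinases and phosphatases of the list moved in both directions. The Src family kinase Lyn rose by 2.89 (SE 0.07), while Fgr, of the same family, fell, with a log2 fold change of -0.83 (SE 0.11). Ptpn6, which encodes SHP-1, a phosphatase recruited by inhibitory receptors, rose by 2.49 (SE 0.07), and Inpp5d, which encodes the lipid phosphatase SHIP1, fell from 372 ± 7.46 CPM with PBS to 50.4 ± 6.75 (log2 fold change -2.88, SE 0.08). Rasgrp1 rose by 2.61 (SE 0.09). Nfatc2, a calcium-regulated transcription factor, the ubiquitin ligase Cbl and the kinase Map3k14 fell, with log2 fold changes of -3.79 (SE 0.22), -1.09 (SE 0.06) and -0.95 (SE 0.14). All of these but Tyrobp kept their direction under the 4 scalings. With library size alone the list's split was 13 higher and 19 lower, where 18.9% of all genes were higher and 69.8% lower.

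**Figure D5:**
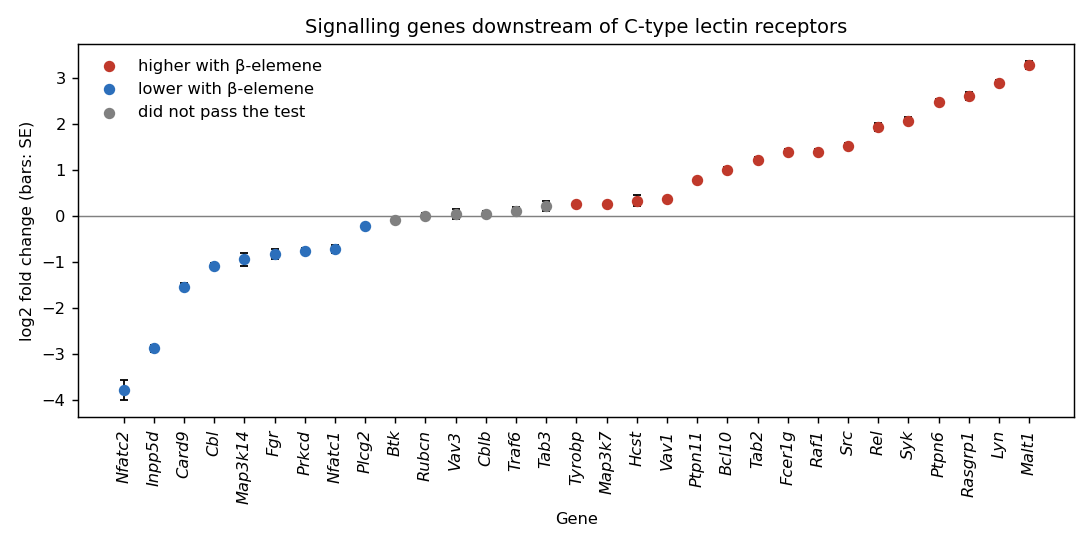
Log2 fold change of β-elemene over PBS with SE bars (y axis) for 31 of the 32 signalling genes (x axis), coloured by the result of the edgeR test at an adjusted p of 0.05. Values run from -3.79 for Nfatc2 to 3.29 for Malt1, with Card9 at -1.54 and Syk at 2.08.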

How the data were processed

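The values analysed are whole-number read counts per gene that the authors deposited for 6 libraries. Per the labels' protocols, a stranded mRNA kit was used on RNA with an integrity number of at least 7, with paired reads of 125 or 150 bases. Per the submitters' processing notes, HISAT2 2.2.1.0 and GRCm38.p6 (mm10) were used. No source used here names the counting tool or its strand setting.

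The titles gave each library's group and number. The count columns are named M1 for the β-elemene libraries and M2 for the PBS libraries, and the sample descriptions tie each column to its title. The default filterByExpr rule of edgeR 4.0.16 (counts of at least 10, total at least 15) left 11459 genes, which were scaled with TMM and fitted by robust quasi-likelihood with group as the only term, in R 4.3.3. P-values were adjusted by Benjamini-Hochberg across those genes, with calls at 0.05. SE and 95% intervals were derived from the fold change and the F statistic. Pair ratios are log2 ratios of counts with 0.5 added. Exon lengths are from GENCODE vM21 basic, and positions and promoters from RefSeq GRCm38.p6. The receptor genes, lists and motifs were chosen with earlier results of these data known. From the lists, up to 6 called genes in each direction were named by size of change (mean CPM of 1 or more), with Fcer1g, Tyrobp, Syk, Card9 and each marker list's most abundant gene. Other genes were named after their values were seen. Some genes that this rule names are not reported here. Alternatives were other scalings and filters, DESeq2 1.42.0, voom of limma 3.58.1, a replicate block and leaving out each library. The pipeline was tested on simulated data with few genes changed, in equal numbers up and down. That run could not test the scaling in data where 76.7% of genes were called. Replicates differed by more than sampling noise (chi-square per degree of freedom 3.8 to 13.5).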

Additional observations from a re-analysis of the deposited data

How the results depend on the processing

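The members called, 5 higher and 2 lower, were the same genes with size factors by median of ratios, both other filters, DESeq2, limma-voom and each library left out, where 60.5% to 77.8% of all genes were called. With library size alone, 2166 genes rose and 8003 fell (18.9% and 69.8% of all genes). On that scaling 5 of 10 members, 12 of 24 other C-type lectins and 19 of 32 signalling genes were lower. The upper quartile gave 4, 11 and 14, where 57.0% of all genes were lower. A filter of 1 CPM in 3 libraries, which tests fewer genes, left 4 other C-type lectins lower and 3 cluster neighbours higher. With that filter 40.7% of all genes were lower and 37.2% higher. Members that did not pass changed sign: Clec4a2 stood at 0.027 with median of ratios and DESeq2 and between -0.091 and 0.063 with a library left out, Clec4a3 between -0.11 and 0.066, and Clec4n between -0.013 and 0.32, at -0.18 with the upper quartile and at -0.50 with library size alone. Beyond scaling and filter, the cause was not tested. With a library left out, the difference in log2 ratio ran from -0.02 to 0.20 for Clec4a1 to Clec5a, from -0.031 to 0.40 for Clec4n to Clec4a2 and from -0.042 to 0.13 for Clec4a2 to Clec4a3.

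With the replicate number as a block, 4188 genes rose and 4605 fell, and the member calls were again 5 higher and 2 lower. Same-numbered libraries deviated together with correlations of -0.02, 0.08 and 0.03, so the numbers were not taken as pairs. Every member had at least 120 counts in each library, so depth limits Clec4n most.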
